A study of Mus musculus with 61 samples.

Results

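The genes described here are 34 oligodendrocyte and myelin genes of the mouse, chosen by name from what is known of the cells that make myelin. The choice was made with earlier results of these data known. Of the 34, 32 were measured by a probe set that names a single gene, out of 18193 genes so named on the array. Enpp2 and Trf have no such probe set here and are named only. Where a gene had several probe sets, the brightest by mean signal stood for it. The members fall into 12 structural proteins of the myelin membrane (Mbp, Mobp, Mog, Mag, Cnp, Mal, Cldn11, Ermn, Opalin, Tspan2, Pllp and Gjb1), 8 lipid and metabolite enzymes (Ugt8a, Fa2h, Aspa, Enpp6, Qdpr, Car2, Galnt6 and the unmeasured Enpp2), 4 transcription factors (Olig1, Olig2, Sox10 and Nkx6-2), 4 receptors and precursor markers (Pdgfra, Cspg4, Lpar1 and Gpr37) and 6 other genes of these cells (Evi2a, Gsn, Bcas1, Adamts4, Cryab and the unmeasured Trf).

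Tissue RNA was measured on 61 Affymetrix 430 2.0 arrays, with 2 arrays for each combination of strain and region and 3 for the bnst of C3H/HeJ. All mice were wild-type males of 8 weeks from the inbred strains C57BL/6J, DBA/2J, FVB/NJ, A/J, C3H/HeJ and 129S6/SvEvTac, with no treatment. The regions were the bed nucleus of the stria terminalis (bnst, a small forebrain nucleus), the hippocampus, the hypothalamus, the periaqueductal gray (pag, in the midbrain) and the pituitary gland. An array held RNA of 1 mouse for the hippocampus and of 2 or 3 for the bnst. It held RNA of 1 or 2 for the hypothalamus and the pag, and of 5 for the pituitary gland. Replicate arrays of a strain and region came from separate animals. Whether arrays of different regions shared mice is not stated in the sources used here, and the fit did not model it. The labels call all samples snap frozen, while by the methods only the hippocampus was frozen directly and the smaller structures went into an RNA-preserving buffer and were pooled, so handling and pool size cannot be told apart from region where the hippocampus is compared. 129S6/SvEvTac came from another supplier than the other 5 strains, so supplier and strain cannot be told apart there.

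Oligodendrocytes wrap axons of the central nervous system in myelin, a stack of membrane rich in particular lipids and held together by a small set of abundant proteins. They arise from precursor cells that carry the receptor Pdgfra and the proteoglycan Cspg4 (NG2) and stay present in the adult brain, and the factors Olig1, Olig2 and Sox10 act along the whole lineage. Nuclei crossed by fibre tracts hold more myelin than tissue packed with neuronal cell bodies. In pieces of tissue, fewer cells of a type and less RNA per cell cannot be told apart.

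Most members stood higher in the pag and the bnst than in the hippocampus and the hypothalamus, while pag and bnst lay close together, as did hippocampus and hypothalamus. The level of the whole list on an array was taken as the median over the 32 members of each member's log2 signal minus its mean over the 49 brain arrays. That level lay between 0.17 and 0.54 on the 12 pag arrays (median 0.36) and between 0.01 and 0.58 on the 13 bnst arrays (median 0.25). It lay between -0.59 and 0.10 on the 12 hippocampus arrays (median -0.32) and between -0.51 and 0.02 on the 12 hypothalamus arrays (median -0.29). Every pag array was above every hippocampus and hypothalamus array on this scale, and the bnst arrays overlapped them only at their low end. Differences were tested probe set by probe set with limma on log2 signals over the 44065 probe sets that rose above a floor of 12.8, and a member was called at a Benjamini-Hochberg adjusted p under 0.05.

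**Figure D1:**
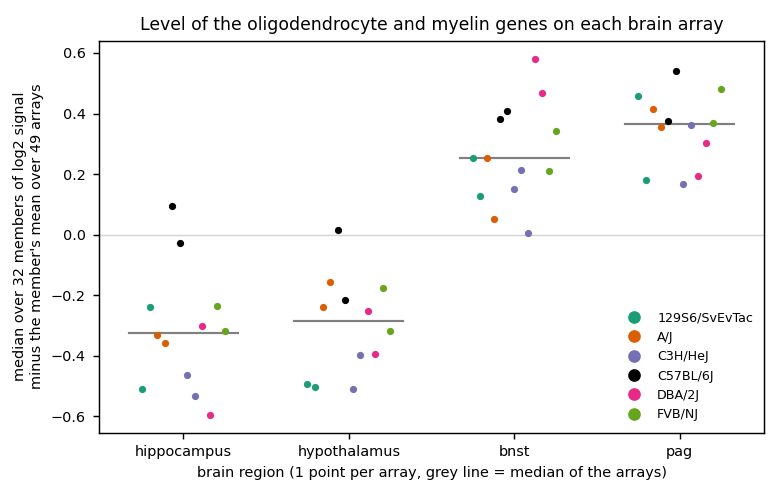
Level of the oligodendrocyte and myelin genes on each of 49 brain arrays, as the median over 32 members of the log2 signal minus that member's mean over the brain arrays (vertical axis), by region and coloured by strain. All 12 pag arrays lie between 0.17 and 0.54, above all hippocampus arrays (-0.59 to 0.10) and all hypothalamus arrays (-0.51 to 0.02); both C57BL/6J arrays of the hippocampus are the highest of their region.

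Between pag and hippocampus, 28 of the 32 members were called higher in the pag and 0 lower, where 25% of all probe sets were called higher and 17.2% lower. The 4 not called were Mbp, Mobp, Pdgfra and Cspg4. The median log2 difference of the members was 0.68, against 0.08 over all probe sets tested. Against the hypothalamus, 27 members were called higher in the pag (13.3% of all probe sets) and 1, Pdgfra, lower (12.9%), with a median of 0.69 against 0.03. The bnst gave nearly the same picture, with 27 members called higher than in the hippocampus (18.2%) and 0 lower (15.5%), a median of 0.60 against 0.01. It also had 25 members called higher than in the hypothalamus (9.52%) and 0 lower (13.5%), a median of 0.61 against -0.02. The comparisons share arrays, so their counts are not independent of each other. An F test over the 4 brain regions called 29 of the 32 members, where 51.5% of all probe sets were called; Mbp, Mobp and Cspg4 were the exceptions.

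For some members the arrays of 2 regions did not overlap at all. Every pag array was above every hippocampus array for 10 members (4.92% of all probe sets), among them Mag, Gjb1, Aspa, Nkx6-2 and Bcas1, and above every hypothalamus array for 13 (1.14%), among them Mog, Tspan2, Fa2h and Gpr37. Every bnst array was above every hippocampus array for 5 members (2.83%), which were Ugt8a, Aspa, Olig1, Nkx6-2 and Bcas1, and above every hypothalamus array for 6 (1.12%), which were Gjb1, Ugt8a, Aspa, Evi2a, Bcas1 and Adamts4. The mean of the pag exceeded that of the hippocampus in each of the 6 strains for 28 members, the exceptions being Mbp, Cldn11, Pdgfra and Cspg4. Pag exceeded hypothalamus in all 6 strains for 28 members, bnst exceeded hippocampus for 28 and bnst exceeded hypothalamus for 26. The share of all probe sets was not computed for these counts over the 6 strains, so how unusual they are cannot be read.

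**Figure D2:**
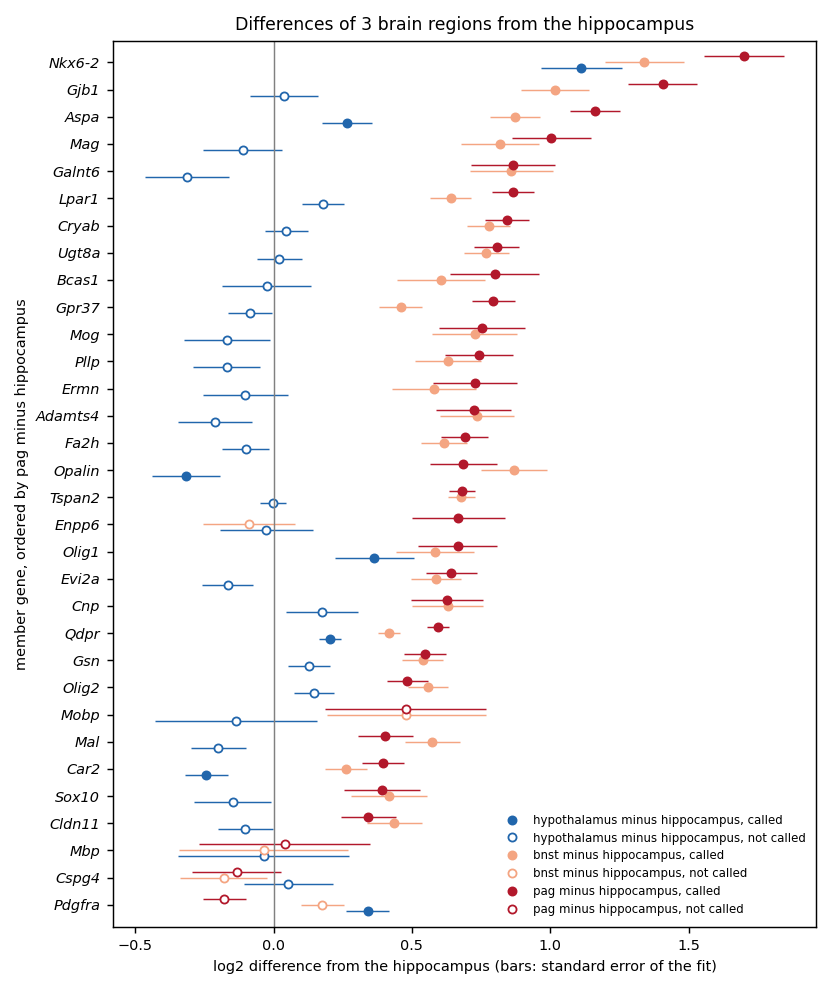
Log2 difference of hypothalamus, bnst and pag from the hippocampus (horizontal axis, bars are standard errors of the limma fit) for the 32 measured members, ordered by the pag difference; filled points had an adjusted p under 0.05. Pag and bnst points lie to the right of 0 for most members, from Nkx6-2 (1.70 in the pag) downward, while hypothalamus points scatter around 0 except for Nkx6-2 (1.11).

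By role, 10 of the 12 structural genes, all 7 measured enzymes, all 4 transcription factors, 2 of the 4 receptors and precursor markers and all 5 of the other measured genes were called higher in the pag than in the hippocampus. In the bnst against the hippocampus the counts were 10 of 12, 6 of 7, 4 of 4, 2 of 4 and 5 of 5. Enpp6 was the enzyme that dropped out, and the 2 receptors were Lpar1 and Gpr37.

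The largest difference between pag and hippocampus belonged to Nkx6-2, a homeodomain factor of maturing oligodendrocytes. Its signal ranged from 70.0 to 154.2 in the pag (median 120.0), from 59.6 to 116.4 in the bnst (median 88.9), from 54.7 to 135.5 in the hypothalamus (median 67.2) and from 15.3 to 55.6 in the hippocampus (median 36.6). The hippocampus arrays were low throughout and overlapped neither pag nor bnst, and the hypothalamus lay between. The log2 difference was 1.70 ± 0.15 (SE) for pag minus hippocampus, 1.34 ± 0.14 for bnst minus hippocampus and 1.11 ± 0.15 for hypothalamus minus hippocampus, all called (adjusted p = 2.7e-12, 9.2e-10 and 5.9e-08 in limma). Pag was also called above hypothalamus, by 0.59 ± 0.15.

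Gjb1, the gap junction protein connexin 32 of myelin, had the next largest difference but a low signal. It ranged from 71.3 to 147.6 in the pag (median 114.1), from 62.9 to 121.9 in the bnst (median 76.9), from 23.1 to 60.8 in the hypothalamus (median 42.3) and from 24.7 to 68.6 in the hippocampus (median 37.5). The pag arrays did not overlap those of hippocampus or hypothalamus. Pag minus hippocampus was 1.41 ± 0.12, pag minus hypothalamus 1.37 ± 0.12, bnst minus hippocampus 1.02 ± 0.12 and pag minus bnst 0.39 ± 0.12 on the log2 scale, the last with an adjusted p of 0.017 in limma. That last call was not kept when each array was scaled to the same median, under quantile normalization or with a floor at the 10th percentile.

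Aspa, the enzyme that splits N-acetylaspartate in oligodendrocytes, ranged from 321.9 to 469.2 in the pag (median 374.1), from 260.8 to 430.8 in the bnst (median 306.0), from 171.3 to 250.8 in the hypothalamus (median 207.3) and from 135.7 to 245.3 in the hippocampus (median 163.0). Pag and bnst overlapped neither of the other regions. The differences were 1.16 ± 0.09 for pag minus hippocampus, 0.90 ± 0.09 for pag minus hypothalamus, 0.29 ± 0.09 for pag minus bnst and 0.27 ± 0.09 for hypothalamus minus hippocampus (log2), all called.

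Mag, an adhesion protein of the innermost myelin layer, ranged from 1034 to 1574 in the pag (median 1283), from 800.0 to 1379 in the bnst (median 1158), from 400.0 to 840.8 in the hypothalamus (median 610.1) and from 495.3 to 986.9 in the hippocampus (median 648.3). The highest hippocampus signals were those of C57BL/6J, and the pag arrays overlapped neither hippocampus nor hypothalamus. Pag minus hippocampus was 1.0 ± 0.14 and pag minus hypothalamus 1.12 ± 0.14 (log2). Galnt6, a glycosyltransferase that starts O-linked sugar chains, ranged from 54.9 to 146.2 in the pag (median 119.1), from 48.3 to 192.2 in the bnst (median 107.5), from 8.29 to 75.0 in the hypothalamus (median 50.8) and from 38.5 to 77.2 in the hippocampus (median 59.0). Its ranges overlapped in every pair of regions, with log2 differences of 0.87 ± 0.15 for pag minus hippocampus, 1.18 ± 0.15 for pag minus hypothalamus and 1.17 ± 0.15 for bnst minus hypothalamus.

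Opalin, a membrane protein of mature oligodendrocytes, showed the largest difference between bnst and hypothalamus, 1.19 ± 0.12 (log2, adjusted p = 8.9e-10 in limma). Its signal ranged from 247.8 to 656.2 in the bnst (median 395.5), from 102.8 to 277.5 in the hypothalamus (median 180.7), from 253.5 to 506.5 in the pag (median 332.3) and from 128.3 to 384.2 in the hippocampus (median 199.0). It was also one of the members called lower in the hypothalamus than in the hippocampus, where the difference was -0.32 ± 0.12, a call lost with the mean over its probe sets.

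The 250 bases before the annotated start of transcription are shown for Nkx6-2, Aspa and Opalin, 3 members with called regional differences and a single annotated window, and for Pdgfra, which did not move with them; the 4 were picked after their values were seen. They come from RefSeq on GRCm38.p6 and lie at chr7:139582798-139583047 (minus strand), chr11:73324638-73324887 (minus), chr19:41077114-41077363 (minus) and chr5:75152001-75152250 (plus). Capitals mark ACAAAG, a core word of Sox factor sites (or CTTTGT, its reverse complement), and CAGCTG, an E-box word that reads the same on both strands and that basic helix-loop-helix factors such as the Olig proteins can bind.
Nkx6-2: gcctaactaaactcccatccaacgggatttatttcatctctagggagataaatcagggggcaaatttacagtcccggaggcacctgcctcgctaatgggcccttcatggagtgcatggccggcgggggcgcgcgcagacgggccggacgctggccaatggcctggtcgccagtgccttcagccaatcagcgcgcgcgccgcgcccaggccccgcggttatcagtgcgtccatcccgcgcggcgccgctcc
Aspa: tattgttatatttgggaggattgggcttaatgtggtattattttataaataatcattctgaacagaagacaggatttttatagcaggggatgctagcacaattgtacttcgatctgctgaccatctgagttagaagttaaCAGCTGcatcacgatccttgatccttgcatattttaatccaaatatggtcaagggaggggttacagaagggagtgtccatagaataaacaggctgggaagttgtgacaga
Opalin: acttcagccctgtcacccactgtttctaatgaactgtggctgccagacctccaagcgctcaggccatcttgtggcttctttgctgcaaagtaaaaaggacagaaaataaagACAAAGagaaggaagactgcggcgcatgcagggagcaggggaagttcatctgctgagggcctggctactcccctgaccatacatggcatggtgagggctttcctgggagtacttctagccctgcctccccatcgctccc
Pdgfra: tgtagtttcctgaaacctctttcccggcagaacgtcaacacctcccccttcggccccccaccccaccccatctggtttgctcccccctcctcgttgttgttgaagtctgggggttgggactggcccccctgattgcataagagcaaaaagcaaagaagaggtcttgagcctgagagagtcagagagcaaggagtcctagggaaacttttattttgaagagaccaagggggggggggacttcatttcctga
Aspa held 1 CAGCTG, Opalin held 1 ACAAAG, and Nkx6-2 and Pdgfra held neither word in this window. No window among these held both words. Of the 34 members, 23 had at least 1 annotated window (34 windows). ACAAAG on either strand was present in at least 1 window of 8 of the 23 genes (34.8%), against 18.6% of all 27025 genes with a window, and CAGCTG in 2 of 23 (8.70%), against 14.7%. The 8 genes with ACAAAG were Cnp, Galnt6, Gjb1, Lpar1, Mag, Mobp, Opalin and Tspan2. These are matches of letters only, with no measurement of binding.

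The remaining structural genes were called higher in both pag and bnst than in hippocampus and hypothalamus, with Mbp and Mobp as the exceptions. The pag minus hippocampus difference was 0.75 for Mog (a surface protein of the outer myelin layer), 0.74 for Pllp (plasmolipin), 0.73 for Ermn (an actin-binding protein), 0.68 for Tspan2 (a tetraspanin) and 0.63 for Cnp (a phosphodiesterase of the myelin cytoplasm) on the log2 scale. It was smaller for Mal (0.40, a proteolipid of lipid rafts) and Cldn11 (0.34, the tight junction protein of myelin). For Mal and Cldn11 the bnst was at least as high as the pag, with bnst minus hippocampus at 0.57 and 0.44. Among the enzymes, the difference was 0.81 for Ugt8a and 0.69 for Fa2h, which make and hydroxylate the galactolipids of myelin, 0.59 for Qdpr (dihydropteridine reductase) and 0.40 for Car2 (carbonic anhydrase 2). Among the transcription factors it was 0.67 for Olig1, 0.48 for Olig2 and 0.39 for Sox10. Olig1 differed from the hypothalamus by 0.30 in the pag and 0.22 in the bnst, and neither was called. With a floor at the 10th percentile Sox10 lost all 4 of its calls, and pag minus hippocampus was also lost for Sox10 under median scaling (0.29) or without DBA/2J pag replicate 2 (0.34), and for Cldn11 under median scaling (0.24).

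Of the receptors, Lpar1 (for lysophosphatidic acid) differed by 0.86 and Gpr37 (an orphan receptor of maturing oligodendrocytes) by 0.79 between pag and hippocampus, and both were also called higher in the pag than in the bnst, by 0.22 and 0.34. The other genes of these cells gave 0.84 for Cryab (the small heat shock protein alphaB-crystallin), 0.80 for Bcas1 (a marker of cells that are starting to myelinate), 0.72 for Adamts4 (a protease), 0.64 for Evi2a (a membrane protein) and 0.55 for Gsn (the actin-severing protein gelsolin). All 5 were called higher in pag and bnst than in hippocampus and hypothalamus, though Bcas1 lost both bnst calls with the mean over its 3 probe sets, and none differed by a call between pag and bnst or between hypothalamus and hippocampus.

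Mbp, the basic protein that holds the layers of compact myelin together, did not separate the brain regions with its brightest probe set. Its signal ranged from 4817 to 6222 in the pag (median 5317), from 4376 to 6989 in the bnst (median 5264), from 4163 to 6439 in the hypothalamus (median 5137) and from 4479 to 5820 in the hippocampus (median 5435). The regions overlapped fully, and pag minus hippocampus was 0.04 ± 0.31 (log2), which turned to -0.0645 when each array was scaled to the same median. The other probe sets of Mbp read differently. Probe set number 4 in order of mean signal had a mean of 5326 ± 435.5 (SD, n = 12 arrays) in the pag, 4662 ± 476 in the bnst (n = 13), 3859 ± 359 in the hippocampus (n = 12) and 3362 ± 471 in the hypothalamus (n = 12). Its pag minus hippocampus difference was 0.47 ± 0.24 with an adjusted p of 0.12 in limma, and 2.6e-05 without the pituitary array of C3H/HeJ described further on. The dimmest of the 8 probe sets went the other way, with means of 155.7 ± 16.1 in the pag, 171.4 ± 27.9 in the bnst, 255.2 ± 13.3 in the hypothalamus and 296.1 ± 46.0 in the hippocampus and a called pag minus hippocampus difference of -0.92 ± 0.09. With the 49 brain arrays alone, probe sets 2 to 6 in that order were called higher in the pag than in the hippocampus. Their differences were 0.28, 0.15, 0.47, 0.36 and 0.50. The brightest (0.04) and number 7 (-0.08) were not called there, and number 8, the dimmest, stayed lower. Number 8 had a mean signal of 207.6, against 2986 to 4309 for numbers 1 to 6. So the result for Mbp depends on the probe set and on the arrays in the fit, and the counts of members above use the brightest.

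Mobp, another abundant protein of compact myelin, ranged from 2615 to 3676 in the pag, from 2770 to 3592 in the bnst, from 1840 to 3171 in the hippocampus and from 1543 to 2959 in the hypothalamus. Its pag minus hippocampus difference of 0.48 ± 0.29 was not called (adjusted p = 0.20 in limma), nor was pag minus hypothalamus, 0.61 ± 0.29. The standard error is shared over all 61 arrays, and a single pituitary array carried much of it. Without the C3H/HeJ pituitary replicate 2, the same difference had an SE of 0.09 and an adjusted p of 1.9e-05, and with only the 49 brain arrays the adjusted p was 9.0e-08. Of the other 4 probe sets of Mobp, 3 were called higher in the pag than in the hippocampus with all arrays, by 0.62, 0.73 and 0.99.

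The 2 markers of precursor cells did not follow the rest. Pdgfra, the receptor for platelet-derived growth factor, ranged from 260.9 to 343.6 in the pag (median 287.2), from 285.3 to 469.6 in the bnst (median 395.3), from 337.6 to 498.7 in the hypothalamus (median 437.4) and from 277.2 to 432.4 in the hippocampus (median 342.9). The pag was the lowest region and the hypothalamus the highest, with overlap of a few arrays. Pag minus hypothalamus was -0.52 ± 0.08 and pag minus bnst -0.36 ± 0.08 (log2, adjusted p = 2.4e-06 and 0.00054 in limma), and hypothalamus minus hippocampus was 0.34 ± 0.08 (adjusted p = 0.00047). The difference of pag and hippocampus, -0.18 ± 0.08, was not called on these settings and was called under median scaling, with the dim-probe filter, on the linear scale and with the 49 brain arrays alone. The other probe sets of Pdgfra, with mean signals of 118.8 and 17.7, gave pag minus hypothalamus differences of 0.09 and 0.26 that were not called, and with the mean over its probe sets Pdgfra kept none of its 3 calls. Cspg4 was dim, with medians of 70.0 in the pag, 64.5 in the bnst, 68.5 in the hypothalamus and 73.1 in the hippocampus, and no pair of regions was called.

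**Figure D3:**
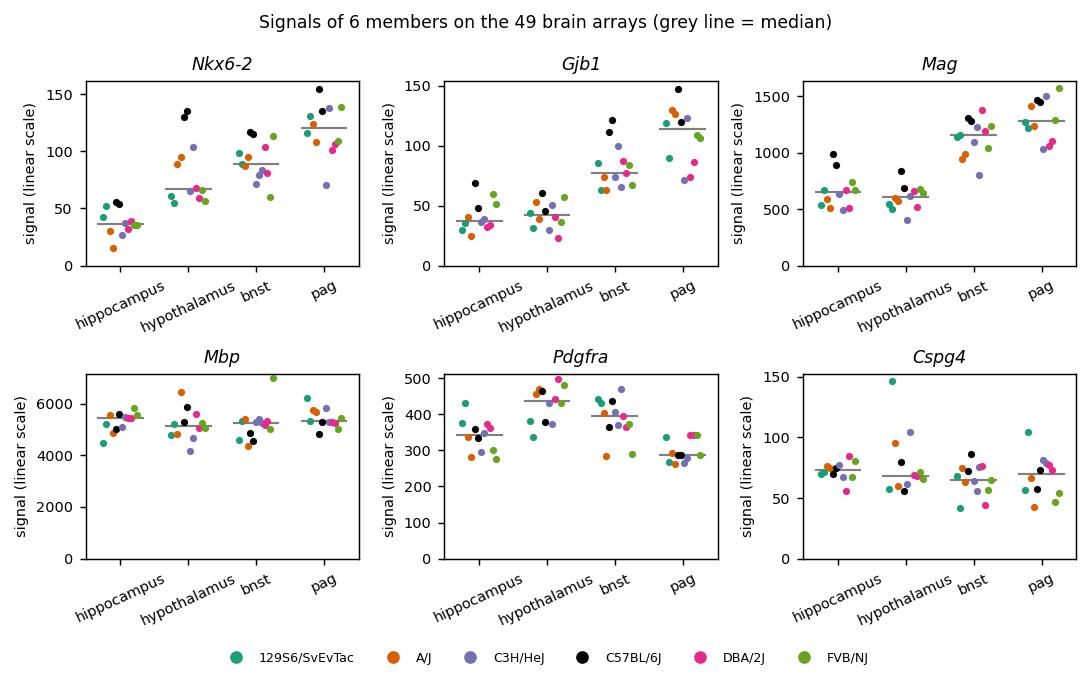
Signals (linear scale, vertical axes) of 6 members on the 49 brain arrays, by region and coloured by strain, with the median of each region as a grey line. Nkx6-2, Gjb1 and Mag are low in the hippocampus and high in the pag. Mbp by its brightest probe set (medians 5137 to 5435) and Cspg4 (medians 64.5 to 73.1) are level across regions. Pdgfra is lowest in the pag (median 287.2).

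Pag and bnst differed by a call for 7 members, 6 higher in the pag (13.8% of all probe sets) and 1, Pdgfra, lower (9.26%). The median difference of the members was 0.06, against 0.05 over all probe sets, and it was -0.03 with arrays scaled to the same median. The largest was that of Enpp6, a choline-specific phosphodiesterase found in newly formed oligodendrocytes. Its signal ranged from 39.8 to 93.0 in the pag (median 61.4), from 16.9 to 56.2 in the bnst (median 41.5), from 14.9 to 77.9 in the hypothalamus (median 40.6) and from 19.5 to 60.5 in the hippocampus (median 40.4). The pag was the only region set apart, by 0.75 ± 0.17 from the bnst, 0.69 ± 0.17 from the hypothalamus and 0.67 ± 0.17 from the hippocampus, while the other 3 regions had nearly equal medians. The second probe set of Enpp6 had means of 33.3 in the pag and 36.0 in the bnst and was called in no region pair, and with the mean over both probe sets Enpp6 lost its call between pag and bnst. The further calls were Gjb1, Gpr37, Aspa and Lpar1, given above, and Qdpr (0.18 ± 0.04). Only 2 of the 7 calls were kept with arrays scaled to the same median, and 11 members were called with the brain arrays alone.

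Hypothalamus and hippocampus differed for 7 members, 5 higher in the hypothalamus (21.3% of all probe sets) and 2 lower (15.6%), with a median of -0.03 against 0.02. Higher were Nkx6-2 (1.11), Olig1 (0.36 ± 0.14), Pdgfra (0.34), Aspa (0.27) and Qdpr (0.20 ± 0.04). Olig1, a factor of the whole lineage, ranged from 1033 to 1504 in the hypothalamus (median 1236) and from 809.2 to 1135 in the hippocampus (median 980.4). Lower were Opalin (-0.32) and Car2 (-0.24 ± 0.08), the latter with signals of 1282 to 2301 (median 1714) in the hypothalamus and 1666 to 2879 (median 1990) in the hippocampus. The ranges overlapped for each of these but were shifted. With arrays scaled to the same median 4 of the 7 were called, without Aspa, Olig1 and Qdpr.

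The regional order was also read in 35 other genes of the oligodendrocyte lineage and of myelin, of which 32 were measured. They were chosen with earlier results of these data known, so they are no independent check of the members. Shares of all probe sets are given in brackets. Of the 32, 25 were called higher in the pag than in the hippocampus (25%) and 2 lower (17.2%), with a median of 0.76. Against the hypothalamus, 22 were called higher in the pag (13.3%) and 3 lower (12.9%). In the bnst, 23 were called higher than in the hippocampus (18.2%) and 0 lower (15.5%). Against the hypothalamus, 17 were called higher in the bnst (9.52%) and 2 lower (13.5%). Between pag and bnst 11 of them were called higher (13.8%) and 5 lower (9.26%) in the pag, with a median of 0.16. Between hypothalamus and hippocampus 13 were called higher (21.3%) and 3 lower (15.6%) in the hypothalamus, with a median of 0.14. Picked after their values were seen, Klk6 (a protease) had the largest pag minus hippocampus difference, 3.53, with mean signals of 252.6 in the pag and 21.7 in the hippocampus, and Bmp4, a growth factor of early lineage cells, was lower in the pag with a difference of -0.81. Myrf, the regulator of myelin gene transcription, differed by 0.79.

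Markers of other cells also differed between these pieces of tissue. Of 10 measured choroid plexus markers, 9 were called higher in the bnst than in hippocampus, hypothalamus and pag and 0 lower; their summed signal ranged from 390.9 to 10892 on the bnst arrays, from 920.5 to 6861 in the hippocampus, from 472.4 to 1628 in the hypothalamus and from 347.3 to 804.5 in the pag. Cldn2 and Slc4a5 of this list had mean signals below the floor in all brain regions but the bnst. Of 7 markers of fibroblasts and meninges, 7 were called lower in the pag than in the hippocampus and 5 lower in the bnst, with sums between 882.1 and 1449 in the hippocampus, 598.6 and 3393 in the hypothalamus, 400.8 and 1447 in the bnst and 450.2 and 708.4 in the pag. All 9 measured microglia markers were called lower in the pag than in the hippocampus, with sums of 1915 to 2591 and 2852 to 3892. Astrocyte markers went both ways (6 of 10 higher and 4 lower in the pag than in the hippocampus), as did neuronal markers (5 higher and 3 lower of 10). Against the hypothalamus the neuronal markers moved one way, with 6 called higher and 0 lower in the pag and 5 and 0 in the bnst, and so did the endothelial markers, with 5 of 8 and 3 of 8 called higher and 0 lower. Against the hippocampus 2 endothelial markers were called higher in the pag and 0 in the bnst, where 2 neuronal markers were called higher and 4 lower. Of 3 measured Schwann cell markers 1, Ncmap, was called higher in the pag than in each of the other brain regions and in the bnst than in the hippocampus. Ncmap had means of 88.8 in the pag, 59.7 in the bnst, 68.6 in the hypothalamus and 31.1 in the hippocampus. Egr2 went the other way, with its highest brain mean in the hippocampus (21.8) and a mean below the floor in the pag. That difference of Egr2 was not called. Pmp2 had a mean below the floor in all 4 brain regions. The part of other cells in the results for the members was not tested. Within the bnst, the member level of C3H/HeJ replicate 3, the array with the lowest choroid plexus sum and the lowest correlation with its replicates (r = 0.974), was the lowest of the region (0.01). Leaving that array out left the counts of members called between bnst and hippocampus (27) and between bnst and hypothalamus (25) as they were.

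Differences between strains were smaller and touched fewer members. An F test over the 6 strains within the 4 brain regions called 15 of the 32 members, where 30.1% of all probe sets were called. Each strain was also set against the mean of the other 5. C57BL/6J had 12 members called higher (9.45% of all probe sets) and 0 lower (8.29%), with a median difference of 0.24. C3H/HeJ had 0 higher (3.47%) and 7 lower (4.01%), with a median of -0.15. 129S6/SvEvTac had 2 higher (7.52%) and 5 lower (7.68%), DBA/2J 2 higher (4.1%) and 1 lower (4.49%), and FVB/NJ 3 higher (4.23%) and 1 lower (3.95%). A/J had 0 members called higher (5.83%) and 0 lower (5.78%) in limma, with 5 at an unadjusted p under 0.05 and 0 to 5 called under the other settings.

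**Figure D4:**
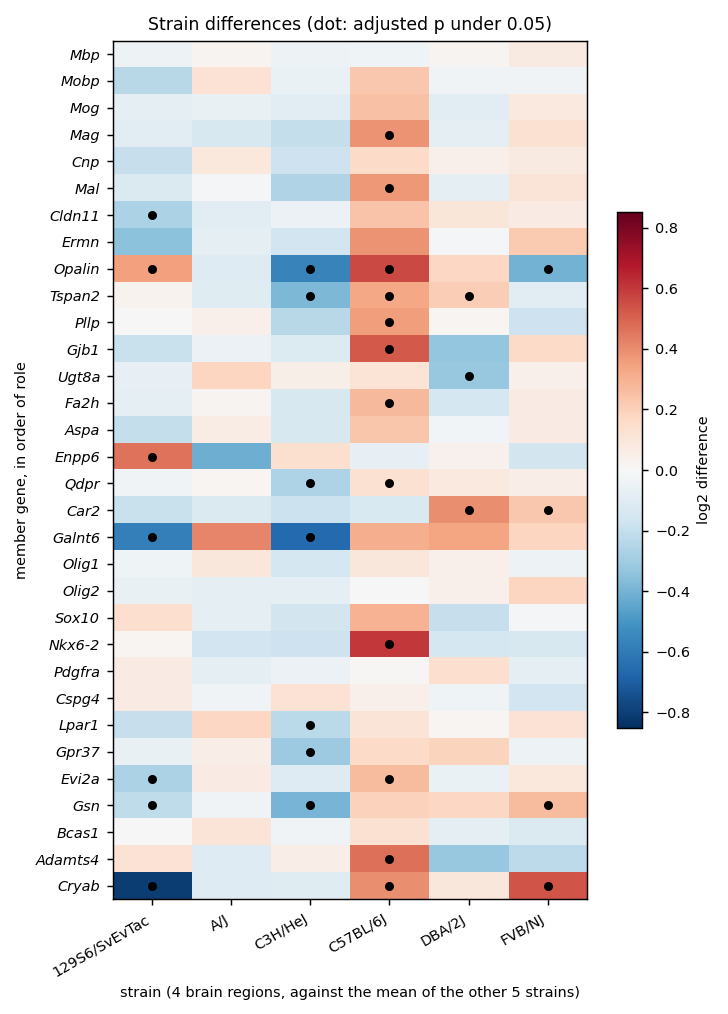
Log2 difference of each strain from the mean of the other 5 over the 4 brain regions (colour) for the 32 measured members in order of role; a dot marks an adjusted p under 0.05 in limma. The C57BL/6J column is red for most members, with 12 dots, and the C3H/HeJ column blue, with 7, while Cryab runs from -0.81 in 129S6/SvEvTac to 0.53 in FVB/NJ.

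The 12 members called higher in C57BL/6J were the structural genes Mag, Mal, Opalin, Tspan2, Pllp and Gjb1, the enzymes Fa2h and Qdpr, the factor Nkx6-2 and Evi2a, Adamts4 and Cryab. The largest difference was that of Nkx6-2, 0.60 ± 0.14 (adjusted p = 0.0016 in limma). The 2 C57BL/6J arrays read 55.6 and 53.9 in the hippocampus, 129.5 and 135.5 in the hypothalamus, 116.4 and 114.9 in the bnst and 154.2 and 135.0 in the pag. These were the highest 2 arrays of all strains in the hippocampus, the hypothalamus and the bnst, and in the pag they overlapped other strains. By region, 31 of the 32 members had a higher mean in C57BL/6J than in the other strains in the hippocampus, 27 in the hypothalamus, 25 in the bnst and 22 in the pag, with median differences of 0.43, 0.30, 0.12 and 0.12. The share of all probe sets was not computed for these counts by region. Without C57BL/6J hypothalamus replicate 1 the count of 12 called members fell to 7. With arrays scaled to the same median it was 6, all of them among the 12, with Mag, Mal, Pllp, Fa2h, Qdpr and Evi2a lost. With the brain arrays alone 21 members were called, 20 higher and 1 lower. Among 9 microglia markers 3 were called higher and 1 lower in C57BL/6J, with sums over the brain arrays that reached 3479 at most in this strain and 3892 in A/J, and of 10 choroid plexus markers 0 were called in limma, with 4 at an unadjusted p under 0.05 and a median difference of -0.51. The choroid plexus sums of the C57BL/6J bnst arrays were 920.2 and 3079, where the bnst arrays ran from 390.9 to 10892 with a median of 7344. The part of these cells in the C57BL/6J differences was not tested.

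The 7 members called lower in C3H/HeJ were Opalin, Tspan2, Qdpr, Galnt6, Lpar1, Gpr37 and Gsn. Lpar1 lost this call under median scaling, under quantile normalization and over all 5 regions, where Gpr37 lost it too. In each of the 4 regions between 25 and 27 of the 32 members had a lower mean in C3H/HeJ than in the other strains. Here too the share of all probe sets was not computed. Galnt6 had the largest difference, -0.66 ± 0.14 (adjusted p = 0.0011 in limma). Its C3H/HeJ signals were 57.7, 63.7 and 48.3 in the bnst, 38.5 and 47.9 in the hippocampus, 34.1 and 42.8 in the hypothalamus and 54.9 and 95.04 in the pag. In the bnst these lay below all other strains, where the highest were those of DBA/2J with 185.0 and 192.2. Of the microglia markers, 4 of 9 were called lower in C3H/HeJ and 0 higher.

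Cryab had the smallest p over the strains (adjusted p = 9.4e-11 in limma). In 129S6/SvEvTac its difference was -0.81 ± 0.07, and in FVB/NJ it was 0.53 ± 0.07. The 129S6/SvEvTac arrays read 299.5 and 423.0 in the hippocampus, 329.1 and 250.4 in the hypothalamus, 641.0 and 552.1 in the bnst and 744.8 and 511.8 in the pag. The FVB/NJ arrays read 663.4 and 618.9, 951.6 and 622.1, 1217 and 1073, and 1492 and 1463 in the same order. The groups did not overlap in any region, and the 129S6/SvEvTac arrays were the lowest of every region, except that 1 of DBA/2J in the pag (718.9) lay between them. C57BL/6J was also called higher, by 0.40 ± 0.07.

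Tspan2, the tetraspanin, came next (adjusted p = 2.3e-09 over the strains in limma). It was lower in C3H/HeJ with a difference of -0.38 ± 0.04 and higher in C57BL/6J by 0.33 ± 0.05 and in DBA/2J by 0.21 ± 0.05. In the hippocampus the C3H/HeJ arrays read 543.7 and 519.7 and those of C57BL/6J 1108 and 947.7. The other 8 hippocampus arrays lay between these. In the bnst the highest arrays were those of DBA/2J, with 1508 and 1459, and the lowest was C3H/HeJ replicate 3, with 729.7.

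Opalin (adjusted p = 8.1e-06 over the strains) was called in 4 strains. It was higher in C57BL/6J (0.56 ± 0.12) and 129S6/SvEvTac (0.35 ± 0.12) and lower in C3H/HeJ (-0.57 ± 0.11) and FVB/NJ (-0.40 ± 0.12) in limma. In the hippocampus the C57BL/6J arrays read 384.2 and 336.6, those of 129S6/SvEvTac 289.8 and 316.8, those of C3H/HeJ 182.2 and 128.3 and those of FVB/NJ 178.8 and 154.8. The first 2 strains lay above the others there, while in the bnst DBA/2J was highest, with 656.2 and 639.6. With the mean over its probe sets, of which the second has a mean signal of 25.7, Opalin lost all 4 strain calls and that of the F test, and the calls in 129S6/SvEvTac and FVB/NJ were also lost under median scaling and over all 5 regions.

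Qdpr (adjusted p = 1.1e-05 over the strains) was lower in C3H/HeJ with a difference of -0.26 ± 0.04 and higher in C57BL/6J by 0.13 ± 0.04. Its C3H/HeJ arrays read 1810 and 1759 in the hippocampus and 2038 and 1964 in the hypothalamus, each the lowest pair of its region. Gsn (adjusted p = 1.9e-05) was lower in C3H/HeJ with a difference of -0.39 ± 0.07 and in 129S6/SvEvTac with a difference of -0.21 ± 0.07 and higher in FVB/NJ by 0.27 ± 0.07. Its 2 C3H/HeJ hippocampus arrays read 382.1 and 315.3, and the 2 129S6/SvEvTac pag arrays read 869.4 and 521.4. Under median scaling and over all 5 regions Gsn lost its calls in 129S6/SvEvTac and FVB/NJ, and Qdpr its call in C57BL/6J. On the linear scale and with the brain arrays alone Gsn also lost its call in 129S6/SvEvTac.

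**Figure D5:**
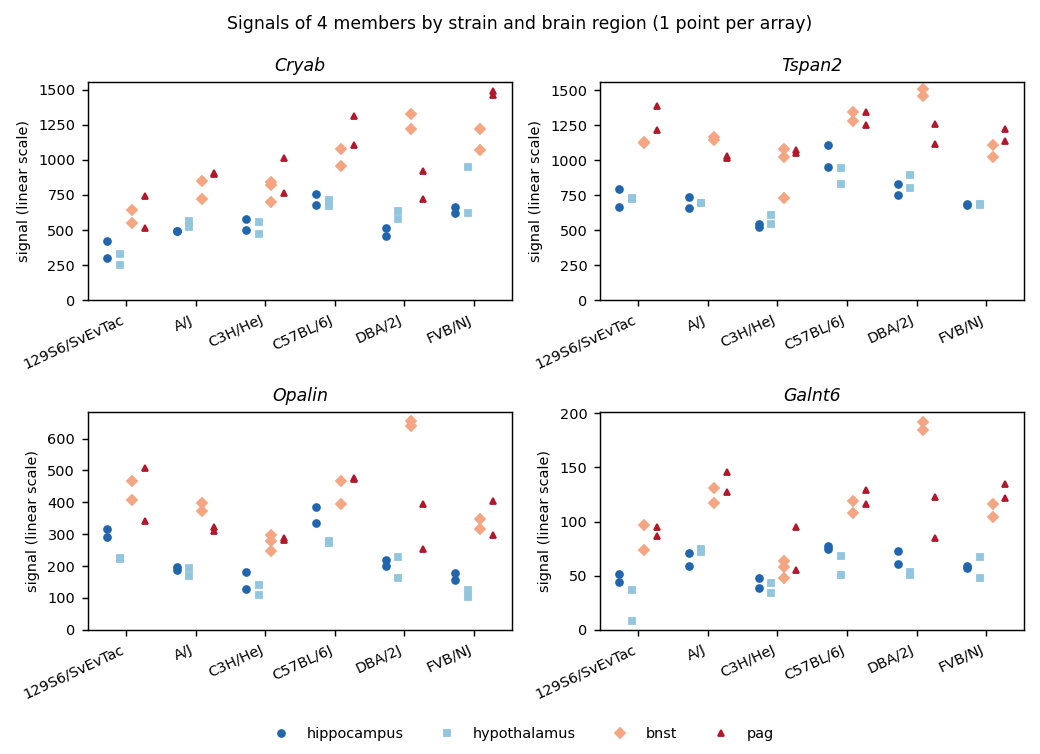
Signals (linear scale, vertical axes) of Cryab, Tspan2, Opalin and Galnt6 by strain and brain region, with 1 point per array. Cryab is lowest in 129S6/SvEvTac (250.4 to 744.8) and reaches 1492 in the pag of FVB/NJ, and the bnst arrays of DBA/2J stand highest for Tspan2, Opalin and Galnt6.

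The remaining strain calls were few. In 129S6/SvEvTac Enpp6 (0.46) was higher beside Opalin, and Cldn11 (-0.27), Galnt6 (-0.58) and Evi2a (-0.27) were lower beside Cryab and Gsn. The calls of Enpp6 and Cldn11 were lost under median scaling and quantile normalization. Those of Enpp6, Galnt6 and Evi2a were lost with the mean over their probe sets. That count of 7 moved most with single arrays: it was 1 without 129S6/SvEvTac hypothalamus replicate 2, 2 without its hippocampus replicate 1, 3 without its bnst replicate 1 or its pag replicate 2, and 4 without its bnst replicate 2 or its pag replicate 1, and it was 11 without the C3H/HeJ pituitary replicate 2. In DBA/2J Car2 was higher, by 0.40 ± 0.07, with Tspan2, and Ugt8a lower, with a difference of -0.32 ± 0.08. The call of Ugt8a was lost under median scaling. The DBA/2J arrays of Car2 read 2879 and 2543 in the hippocampus, 2301 and 2174 in the hypothalamus, 3291 and 3225 in the bnst and 3302 and 3082 in the pag. They were the 2 highest of their region except in the bnst, where 1 array of FVB/NJ (3289) lay between them. In FVB/NJ Car2 (0.23) was higher beside Cryab and Gsn, and Opalin was lower. Car2 lost this call under median scaling, under quantile normalization and over all 5 regions. The count of 4 in FVB/NJ was 2 without its bnst replicate 1, without either of its hypothalamus arrays or without either of its pag arrays. Mog, Mobp, Mbp, Cnp, Ermn, Aspa, Olig1, Olig2, Sox10, Pdgfra, Cspg4 and Bcas1 were called in none of the 6 strain comparisons. That was so with all arrays in the fit. Without the C3H/HeJ pituitary replicate 2, Aspa, Cnp, Ermn and Mobp were called in C57BL/6J. Cnp, Ermn and Mobp were then also called in 129S6/SvEvTac, and Cnp in C3H/HeJ. With the brain arrays alone, Mog and Sox10 were also called in C57BL/6J, and Olig1 in C3H/HeJ. Mbp, Olig2, Pdgfra, Cspg4 and Bcas1 gained no strain call in either fit.

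Whether a regional difference changed with the strain was tested as an interaction. No member was called (0 of 32 in limma, where 3.44% of all probe sets were), with 5 at an unadjusted p under 0.05, 1 called with the brain arrays alone and 7 on the linear scale. The smallest adjusted p was 0.16 for Gsn, followed by 0.17 for Qdpr and 0.20 for Tspan2. For Gsn the DBA/2J arrays read 922.6 and 920.1 in the bnst, the highest of that region, and 660.2 and 639.7 in the pag, in the lower part of that region. For Qdpr the C57BL/6J arrays read 3035 and 2840 in the hypothalamus, where 1 array of A/J (2904) lay between them, but 2838 and 3414 in the pag, within the range of the others. For Tspan2 the DBA/2J arrays were highest in the bnst, as given above, and read 1255 and 1117 in the pag. As a description over the list, 29 of 32 members had a higher mean in DBA/2J than in the other strains in the bnst (median 0.29) and 25 a lower one in the pag (median -0.15). The share of all probe sets was not computed for these 2 counts.

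Replicate arrays show how far the members moved together within a group. The members tended to move together between the 2 arrays of a group: in 4 of 24 brain groups at least 28 of the 32 members were higher on the same array, and the median difference between replicates 1 and 2 over the members reached 0.31 (log2) in the pag of 129S6/SvEvTac, while over all probe sets it was at most 0.0521. The middle value of this difference over the 24 groups was 0.09. These sizes are differences between 2 single arrays. The shift of 0.24 in C57BL/6J is a difference between means over several arrays of 4 regions, so it cannot be set directly against them. The shifts of about 0.6 to 0.7 between regions, also of means, lie above the largest of them.

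In the pituitary gland most members were low. The member level lay between -3.36 and -2.09 on the 12 arrays. Gsn read 384.4 to 767.2 there, Tspan2 458.6 to 730.5 and Qdpr 1210 to 1594. Over the whole list 18 of 32 members had their highest pituitary signal on C3H/HeJ replicate 2, 8 of them at over 2 times the highest of the other 11 arrays. For these counts the share of all probe sets was not computed, so how unusual they are cannot be read.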

How the data were processed

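The authors scanned biotin-labelled cRNA of 61 tissue samples on 1-colour Affymetrix 430 2.0 arrays and processed them in the TeraGenomics system (absolute analysis); its version is not given in the sources used here. The deposited values are intensity values (scaled signals) on a linear scale; the scaling target is not given in the sources used here. Means per array were 180.5 to 200.5 and 5.36% of values were below 0; the number of arrays limits the precision. Groups came from the sample labels. The 64 control probe sets were left out, and genes were named from the platform annotation, by which 34945 of 45037 probe sets name 1 gene, 932 several and 9160 none.

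Signals below the 20th percentile (12.8) were raised to it and log2 was taken, so differences of dim probe sets are understated. limma 3.58.1 in R 4.3.3 fitted a mean for each of 30 groups (lmFit, eBayes with trend, 31 residual degrees of freedom), and p values were Benjamini-Hochberg adjusted over the 44065 probe sets above the floor on at least 1 array. Replicates are separate animals or pools. The fit was tested on simulated data, and tables and figures were made in Python 3.11.15. The members, their roles and the other gene lists were chosen with earlier results of these data known. Values by array are given for the 5 called members with the largest pag minus hippocampus difference, the 2 called members with the largest difference each way in the other region pairs, the 5 members with the smallest strain p, the called member with the largest difference in each strain, the 3 with the smallest interaction p, and members called against the majority. Present calls were not used here. Leaving out the C3H/HeJ pituitary replicate 2 was added after the data were seen.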

Additional observations from a re-analysis of the deposited data

Results flagged for a closer look

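Mbp stood out on an array outside the brain regions: in the pituitary gland of C3H/HeJ, replicate 2 read 3414, while the other 11 pituitary arrays lay between 40.3 and 164.5. On the same array Mobp read 653.4 against 3.08 to 26.3, Bcas1 347.7 against 8.76 to 77.2 and Olig1 108.4 against 15.6 to 41.4. Opalin and Tspan2 were not raised alike, and the summed signals of neuronal (5783 against 4782 to 7319) and astrocyte markers (2573 against 2186 to 2733) lay within the range of the other arrays. So did that of the other oligodendrocyte lineage and myelin genes (4008 against 3537 to 4141), and that of endothelial markers was just below it (811.2 against 820.8 to 1143). The sum of the other lineage and myelin genes is led by Apod, with a mean of 1083 over the pituitary arrays. Tmem88b (26.4) and Myrf (5.09) add little to it, so a rise of such dim genes could not be read from the sum. The array shares in the spread of the fit for every brain comparison: without it, 30 members in place of 28 were called between pag and hypothalamus. What the piece of tissue held was not tested.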

How the results depend on the processing

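The counts of members called between pag or bnst and hippocampus or hypothalamus moved little: 26 to 30 of 32 between pag or bnst and hippocampus, 27 to 30 between pag and hypothalamus and 24 to 28 between bnst and hypothalamus over all settings. The counts that moved by more than 1.5 times were the following. Scaling each array to the same median gave 2 for pag minus bnst, 4 for hypothalamus minus hippocampus, 3 for 129S6/SvEvTac, 6 for C57BL/6J and 1 for FVB/NJ. Signals on the linear scale gave 14 for pag minus bnst, 11 for hypothalamus minus hippocampus, 12 for 129S6/SvEvTac, 5 for A/J, 14 for C3H/HeJ, 20 for C57BL/6J, 6 for DBA/2J, 7 for FVB/NJ, 25 for the strains and 7 for the interaction. The 49 brain arrays alone gave 11 for pag minus bnst, 13 for hypothalamus minus hippocampus, 12 each for 129S6/SvEvTac and C3H/HeJ, 21 for C57BL/6J, 2 for A/J, 5 for DBA/2J, 24 for the strains and 1 for the interaction. A/J, with 0, had 1 under quantile normalization, a floor at the 40th percentile, the filter on dim probe sets and the mean of all probe sets of a gene, and 5 over all 5 regions, where DBA/2J also had 5. The floor at the 40th percentile gave 5 for DBA/2J and 1 for the interaction. Mbp in pag minus hippocampus turned to -0.0645 under median scaling. The causes of these moves were not tested.

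Leaving out each brain array in turn gave 27 to 29 for pag minus hippocampus, 28 for pag minus hypothalamus, 6 to 8 for pag minus bnst, 27 to 28 for bnst minus hippocampus, 25 for bnst minus hypothalamus, 5 to 8 for hypothalamus minus hippocampus, 29 over the regions, 12 to 17 over the strains and 0 to 1 for the interaction. By strain it gave 1 to 8 for 129S6/SvEvTac (11 without the C3H/HeJ pituitary replicate 2), 0 to 2 for A/J, 6 to 7 for C3H/HeJ, 7 to 15 for C57BL/6J (16 without that pituitary array), 2 to 4 for DBA/2J and 2 to 4 for FVB/NJ. Replicate numbers showed no pairing shared by all groups: same-numbered arrays deviated together with a correlation above 0.1 in 78 of 406 pairs of groups. The correlations ran from -0.42 to 0.41, with a median of -0.0046. Pairing within a region was not tested, nor was pairing between regions of the same strain on its own. In the bnst replicate 1 held 2 mice and replicate 2 held 3, so replicate number and pool size cannot be told apart between them. With the replicate block 28 members were still called between pag and hippocampus, 1 member each was called for A/J and the interaction, Lpar1 in 129S6/SvEvTac and Gsn in C57BL/6J were gained, and the calls of Enpp6 in 129S6/SvEvTac, Lpar1 in C3H/HeJ and Mag in C57BL/6J were lost. Of 155 called differences of members 42 lost their call under at least 1 setting, fits without 1 array included. Among the 33 strain calls 20 were lost at least once. Between pag or bnst and hippocampus or hypothalamus 10 calls were lost at least once. With 2 arrays a group, the number of arrays limits what can be read of a single group.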
